A study of Mus musculus with 6 samples.

Results

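9 genes of the retinoic acid pathway were followed here: the receptors Rara, Rarb and Rarg, the cellular carriers Crabp1 and Crabp2, the enzymes Cyp26a1, Cyp26b1 and Dhrs3, and the retinol uptake receptor Stra6. They were taken by gene name from the gene FPKM table, which lists 54532 genes, and all 9 names were found once. The libraries were made from total RNA of N2a (Neuro2A) cells, a mouse neuroblastoma line whose labels give the strain as C57BL/6. 3 libraries came from cells transfected with a control siRNA (si-NC) and 3 from cells transfected with an siRNA against circRtn4, a circular RNA of the Rtn4 gene (si-circRtn4). The study asked which mRNAs change when circRtn4 is knocked down. The labels name only a growth medium of MEM with serum, whereas the study's general methods describe transfected N2a cells as moved to a differentiation medium with retinoic acid before harvest, without naming the sequenced libraries. No library is labelled as grown with or without retinoic acid, so basal and retinoic acid-induced levels cannot be told apart, and the levels below are given against the other genes of the pathway.

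Retinoic acid is made in cells from retinol, which Stra6 can take up and which Dhrs3 helps to restore from retinaldehyde. Crabp1 and Crabp2 carry retinoic acid in the cytosol, and Cyp26a1 and Cyp26b1 oxidise it for clearance. Rara, Rarb and Rarg bind DNA with a retinoid X receptor partner at paired hexamer repeats. Rarb, Cyp26a1, Cyp26b1, Dhrs3 and Stra6 are textbook targets that retinoic acid raises in many cell types, and retinoic acid is a classical inducer of neurite outgrowth in neuroblastoma lines.

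The element that ties the targets to the receptors was searched for as letters in RefSeq promoter windows (GRCm38.p6), each running from 250 bases before to 50 bases after a gene's start. The pattern was a direct repeat of 2 hexamers, each NGNTCA with A or G for the leading N and G or T for the other, with 5 bases between them (DR5), on either strand. It was present in 32 of 32851 windows (0.0974%). The 8 members with a window had 17 windows in all, and 2 of these held a DR5, those of Rarb and Cyp26a1. Both are shown with the hexamers in capitals, each on the minus strand of the genome, because they are the members that the receptors are best known to act on directly.
Rarb, chr14:16575507-16575535: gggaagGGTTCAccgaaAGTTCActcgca
Cyp26a1, chr19:37697770-37697798: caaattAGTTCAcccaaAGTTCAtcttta
The Rarb repeat lay 53 to 37 bases before a start inside the gene's listed span, on the strand of the gene. The Cyp26a1 repeat lay 32 to 16 bases before the start on the strand opposite the gene. Direct repeats spaced by 1 base and by 2 bases were present in 0.222% and 0.268% of windows and in none of the members' windows. A single hexamer was present in 43.7% of windows and in 6 of the members' 17. The hexamers were chosen beforehand as half-sites of these receptors, so the matches in their known targets are a description and not a test. A match is a match of letters and not a measured binding site.

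Among the members, Cyp26b1 was by far the most abundant and both genes with a DR5 were at or near 0. The mean over the 6 libraries was 87.8 FPKM for Cyp26b1, 12.2 FPKM for Rara, 7.33 FPKM for Rarg and 2.65 FPKM for Stra6. Crabp2 had a mean of 0.842 FPKM and Crabp1 of 0.712 FPKM. Cyp26a1 had a mean of 0.0848 FPKM, Dhrs3 of 0.0232 FPKM, and Rarb was listed at 0 in every library. FPKM is scaled by the listed gene length, which for Rarb equals all 5265 annotated exonic bases. Levels of different genes thus compare only roughly.

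**Figure D1:**
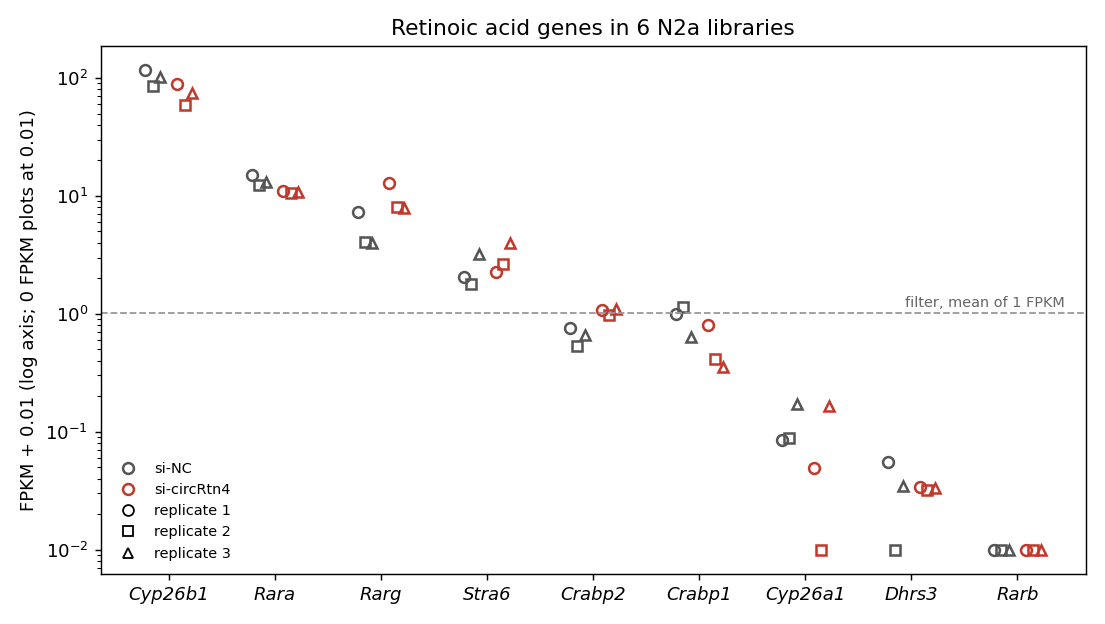
FPKM of the 9 members in each of the 6 libraries, ordered by mean level on a log axis of FPKM + 0.01, with the group shown by colour and the replicate by shape. Cyp26b1 sits above 59 FPKM in every library, and Rarb, at 0 FPKM in every library, is drawn at 0.01.

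The step from Cyp26b1 to Rara was 7.23-fold, and the ranges of these 2 genes over the 6 libraries did not overlap. Rara was above Rarg in 5 of 6 libraries and Rarg above Stra6 in 6 of 6, although in both pairs the ranges over the libraries overlapped. Stra6 and Crabp2 did not overlap in range, nor did Crabp1 and Cyp26a1. Crabp2 and Crabp1 could not be ordered beyond their spread, with Crabp2 higher in 4 of 6 libraries. Cyp26a1 overlapped with Dhrs3, and Dhrs3 with Rarb.

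Rarb, the receptor with a DR5 before an internal start of its own gene, had 0 reads in all 6 libraries. A count of 0 allows up to 3 reads, which is 0.0366 to 0.0407 FPKM in these libraries, a limit that covers counting error only. The gene (chr14:16430839-16819156, minus strand, GRCm38, ENSMUSG00000017491) overlaps Top2b, a topoisomerase gene on the opposite strand with 18624 reads over the 6 libraries. Of the 5265 exonic bases of Rarb, pooled over its annotated transcripts, 1793 are shared with Top2b and 3472 (65.9%) are not. Most of these pooled bases were thus open to counting, and the share for a single transcript was not computed. How the counting treated the shared bases, and whether it used strand, is not given in the sources used here.

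Cyp26a1, the classical retinoic acid-induced hydroxylase, had 2, 2 and 4 reads in si-NC and 1, 0 and 4 reads in si-circRtn4. Against its limit of 0.109 to 0.121 FPKM for 3 reads, the highest library stood at 0.161 FPKM. Its paralog Cyp26b1 was 1035 times higher by mean FPKM. Dhrs3, the retinaldehyde reductase that retinoic acid raises in many cells, had 2, 0 and 1 reads in si-NC and 1 read in each si-circRtn4 library, all at or under its limit of 0.0659 to 0.0732 FPKM. For both enzymes a difference between the groups was not detectable at this depth. Of the textbook targets among the members, only Cyp26b1 and Stra6 were above 1 FPKM in every library.

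The 4 members with a mean of at least 1 FPKM entered the comparison of si-circRtn4 with si-NC across 12749 genes. In the unpaired limma test on log2(FPKM + 1), 0 of these 4 were called at an adjusted p under 0.05, and 3 of the 4 had an unadjusted p under 0.05, as did 3305 of the 12749 genes. Among all genes tested, 9.19% were called, 4.36% higher and 4.82% lower. With the replicate number as a block, 1 member was higher (Rarg) and 2 were lower (Rara and Cyp26b1), against 9.29% of all genes called higher and 9.75% called lower. Rara and Rarg were the 2 of the 4 whose groups did not overlap in FPKM, as were 31.7% of all genes tested. The exact permutation test over 3 libraries against 3 cannot give less than 0.1. In bulk RNA, fewer cells that express a gene and less of its RNA per cell cannot be told apart.

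Rarg, a receptor known from skin and skeletal development (chr15:102234938-102257517, minus strand, ENSMUSG00000001288), was higher in si-circRtn4. It stood at 7.28, 4.07 and 3.97 FPKM in si-NC replicates 1, 2 and 3, from 468, 250 and 237 reads. It stood at 12.8, 8.07 and 7.83 FPKM in si-circRtn4 replicates 1, 2 and 3, from 773, 535 and 485 reads. Every si-circRtn4 library was above every si-NC library, and replicate 1 was the highest of its group in both. The means were 5.11 ± 1.88 FPKM in si-NC and 9.55 ± 2.78 FPKM in si-circRtn4 (SD, n = 3 each), so that si-circRtn4 was at 187% of si-NC.

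The log2 difference of Rarg on the FPKM + 1 scale was 0.80 (SE 0.24, 95% interval 0.24 to 1.36), with an adjusted p of 0.0815 in the unpaired limma test. The differences within replicate numbers 1, 2 and 3 were 0.73, 0.84 and 0.83. They lay much closer together than the libraries of either group. With the number as a block the SE was 0.06 and the adjusted p of limma 0.00357. The exact permutation p was 0.1, the smallest the design allows. Without si-NC replicate 1 the log2 difference was 1.04 and the unpaired limma test called it (adjusted p = 0.0324, with 3.19% of all genes called higher). Leaving out any other single library left Rarg uncalled (limma adjusted p 0.106 to 0.217). Limma-voom on recovered reads also called Rarg, at an adjusted p of 0.028 for the genes tested and 0.0171 for genes with at least 10 reads, where 7.08% and 5.14% of genes were called higher. The fit on genes with at least 10 reads was added after the values were seen. Of the 15 alternatives, 4 called Rarg.

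Rara, the most widely expressed retinoic acid receptor (chr11:98927818-98974942, plus strand, ENSMUSG00000037992), was lower in si-circRtn4. Its level was 15.0, 12.4 and 13.1 FPKM in si-NC replicates 1, 2 and 3, from 986, 781 and 799 reads. The same replicates of si-circRtn4 were at 10.9, 10.6 and 10.9 FPKM, from 679, 721 and 690 reads. The groups did not overlap, and the si-circRtn4 libraries lay close together. The means were 13.5 ± 1.33 FPKM in si-NC and 10.8 ± 0.171 FPKM in si-circRtn4 (SD, n = 3 each), which puts si-circRtn4 at 80.1% of si-NC.

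For Rara the log2 difference was -0.29 (SE 0.08, 95% interval -0.49 to -0.10) and the adjusted p was 0.0725 in the unpaired limma test. With the replicate block the SE was 0.07 and the limma adjusted p 0.0359. All 3 numbers gave a lower value, by -0.42, -0.21 and -0.25 on the log2 scale, and 28.3% of all genes tested were lower in all 3. The exact permutation p was 0.1.

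**Figure D2:**
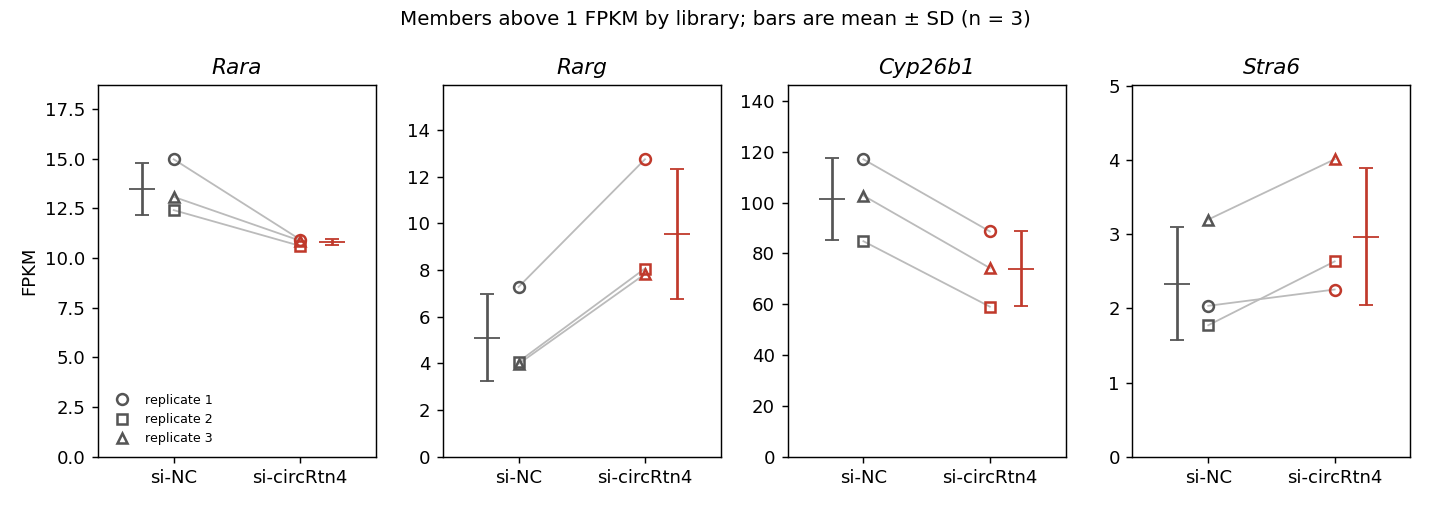
FPKM of the members with the most reads in each library, with each line joining the si-NC and si-circRtn4 libraries that share a replicate number. Rarg and Stra6 are higher in si-circRtn4 on all 3 lines, and Rara and Cyp26b1 are lower on all 3. Of all genes tested, 28.4% were higher and 28.3% lower in all 3 replicate numbers.

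Set against each other within a library, Rarg and Rara differed in opposite directions. The ratio of Rarg to Rara FPKM was 0.486, 0.328 and 0.304 in si-NC and 1.17, 0.760 and 0.720 in si-circRtn4. The share of Rarg in the summed FPKM of the 3 receptors was 32.7%, 24.7% and 23.3% in si-NC and 53.8%, 43.2% and 41.9% in si-circRtn4. Every si-circRtn4 library thus had the larger Rarg share, with a mean of 46.3% ± 6.57 against 26.9% ± 5.09 (SD, n = 3 each). The summed receptor level itself overlapped between the groups, at 16.5 to 22.2 FPKM in si-NC and 18.7 to 23.7 FPKM in si-circRtn4. These ratios restate the levels of the same genes and carry no test of their own.

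**Figure D3:**
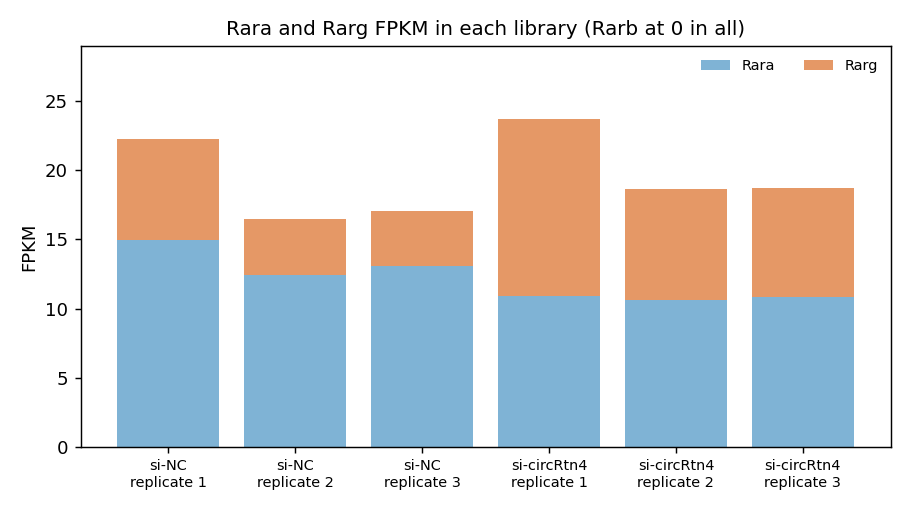
FPKM of Rara and Rarg in each library, as 1 stacked bar per library. Rarg makes up 23.3 to 32.7% of the bar in si-NC and 41.9 to 53.8% in si-circRtn4, and Rarb adds nothing in any library.

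Cyp26b1, the hydroxylase that clears retinoic acid in many neural and skeletal tissues (chr6:84571414-84593908, minus strand, ENSMUSG00000063415), ranked 471 among all listed genes by mean FPKM. It stood at 117, 84.8 and 103 FPKM in si-NC, from 9463, 6547 and 7698 reads. It stood at 88.7, 59.1 and 74.3 FPKM in si-circRtn4, from 6754, 4921 and 5780 reads. The groups overlapped, because si-circRtn4 replicate 1 was above si-NC replicate 2, and in both groups replicate 1 was the highest and replicate 2 the lowest. The means were 102 ± 16.2 FPKM in si-NC and 74.0 ± 14.8 FPKM in si-circRtn4 (SD, n = 3 each), or 72.9% of si-NC.

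The log2 difference of Cyp26b1 was -0.46 (SE 0.17, 95% interval -0.85 to -0.07), with an adjusted p of 0.137 in the unpaired limma test and an exact permutation p of 0.2. Within replicate numbers the differences were -0.40, -0.51 and -0.46. With the replicate block the SE was 0.05 and the limma adjusted p 0.00749. The spread among the libraries of a group was therefore mostly shared by number for this gene, as it was for Rarg. The ratio of Cyp26b1 to Rara was 7.51 ± 0.581 in si-NC and 6.84 ± 1.27 in si-circRtn4 (SD, n = 3 each), a difference within the spread.

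**Figure D4:**
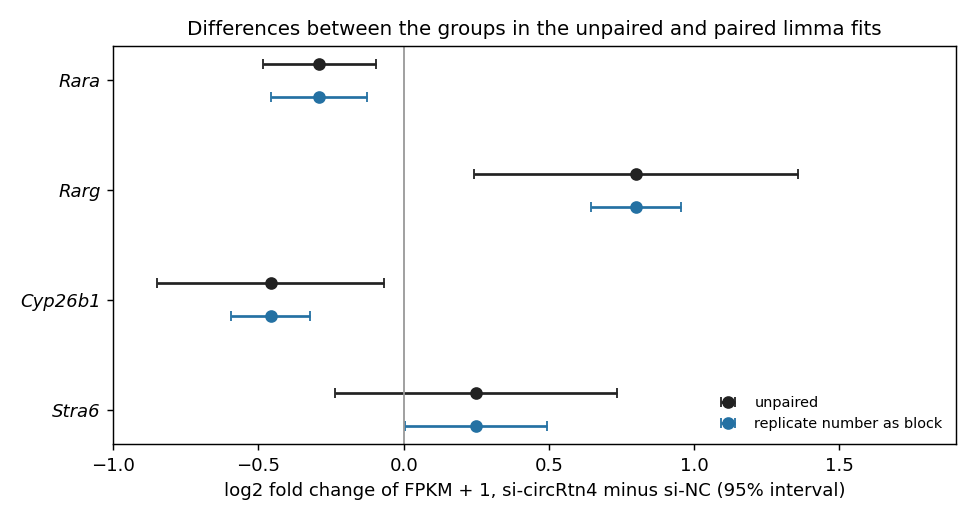
Log2 difference of si-circRtn4 from si-NC on the FPKM + 1 scale for the 4 members tested, with 95% intervals from the unpaired limma fit and from the fit with the replicate number as a block. The point estimates are the same in both fits, and the blocked intervals are shortest for Cyp26b1 and Rarg relative to the unpaired ones.

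Stra6, the membrane receptor that takes up retinol from its plasma carrier (chr9:58063788-58153996, plus strand, ENSMUSG00000032327), was, like the other members tested, not called unpaired. It stood at 2.04, 1.77 and 3.20 FPKM in si-NC and at 2.26, 2.63 and 4.01 FPKM in si-circRtn4. The groups overlapped, and replicate 3 was the highest of its group in both. The log2 difference was 0.25 with a 95% interval of -0.24 to 0.74 (limma, adjusted p = 0.507 unpaired and 0.138 with the replicate block). The gene overlaps Ccdc33 on the opposite strand, which had 88 reads over the 6 libraries.

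The carriers were low and below the filter on low values. Crabp1, which is thought to hold retinoic acid in the cytosol (chr9:54764748-54773110, plus strand), had 12, 13 and 7 reads in si-NC and 9, 5 and 4 in si-circRtn4. The sums were 32 reads (95% Poisson interval 21.9 to 45.2) and 18 reads (10.7 to 28.5), and the groups overlapped in FPKM. Crabp2, which delivers retinoic acid to the receptors in the nucleus (chr3:87948666-87953376, plus strand), had 15, 10 and 12 reads in si-NC and 20, 20 and 21 in si-circRtn4. The sums were 37 reads (26.1 to 51.0) and 61 reads (46.7 to 78.4), and the groups did not overlap in FPKM. Nor did those of 31.7% of the 12749 genes tested, a set that the filter kept Crabp2 out of.

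In limma-voom on genes with at least 10 recovered reads in total, an alternative added after the values were seen, the log2 difference was 0.71 (SE 0.36, adjusted p = 0.265) for Crabp2 and -0.83 (SE 0.52, adjusted p = 0.386) for Crabp1. The exact permutation p was 0.1 for Crabp2 and 0.2 for Crabp1. The intervals cover counting error only, and reads without molecular identifiers are not independent molecules. Neither carrier was called in this fit, which called 9.21% of its genes, or in the limma test without the filter on low values, which called 1.66%.

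The study examined miR-24-3p as a partner of circRtn4, so the members were searched for sites of its seed and for sites of the siRNA guide's seed. The mature miRNA (RefSeq) is shown with bases 2 to 8 in capitals, and the designed siRNA with the site of its guide's seed in capitals, assuming that the guide is the strand complementary to the one listed.
miR-24-3p: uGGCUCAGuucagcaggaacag
si-circRtn4: cttcagatgagACCCTTTt
The 3′ UTR searched was that of the longest annotated one in GENCODE M21. The miR-24-3p site CTGAGCC was found in 19.6% of the 10694 tested genes with a 3′ UTR, and the guide site ACCCTTT in 12.5%. Rara, Rarg and Cyp26b1 each held 1 miR-24-3p site, Rarg also held a guide site, and the other 6 members held neither.
Rara, bases 243 to 249 of the 3′ UTR: ggacctgggcCTGAGCCctcacccacc
Rarg, bases 402 to 408: cgagggagggCTGAGCCcacccttgtg
Cyp26b1, bases 672 to 678: atgggaccaaCTGAGCCgggtggcttc
Rarg, guide site, bases 95 to 101: cccactctccACCCTTTtaatgagctc
All 3 members with a miR-24-3p site were among the 4 tested, and their directions differed, with lower means of Rara and Cyp26b1 in si-circRtn4 and a higher mean of Rarg. Sites were found by 7 matching bases, and pairing beyond these was not scored. Whether any of the sites is used was not tested.

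Genes with the profile most like that of Rarg over the 6 libraries were found by the smallest root mean square difference of centred log2(FPKM + 1) among 10783 protein-coding genes tested. They were Tle6 (0.11), Trnp1 (0.12), Irak2 (0.13), Tmco4 (0.14) and Rab11fip5 (0.14), against a spread of Rarg itself of 0.51. This likeness rests on 6 libraries that share the group difference.

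Beyond the members, 56 other genes of retinoid biology were held in 3 lists, and 31 passed the filter on low values. In the unpaired limma test 2 of the 31 were higher, 1 was lower and 28 were not called. With the replicate block 4 were higher and 2 lower. Over all genes the called shares were 4.36% higher and 4.82% lower unpaired, and 9.29% and 9.75% with the block, so that the 3 of 31 called unpaired lay close to the 9.19% of all genes. The median log2 difference of the 31 was 0.02, beside 0.00197 over all genes tested. 12 of the 56 had 0 reads in every library, among them Rxrg, Rbp2, Lrat, Sdr16c5, Aldh1a2, Hoxa2, Hoxb1, Hoxb2, Cdx1 and Gbx2.

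**Figure D5:**
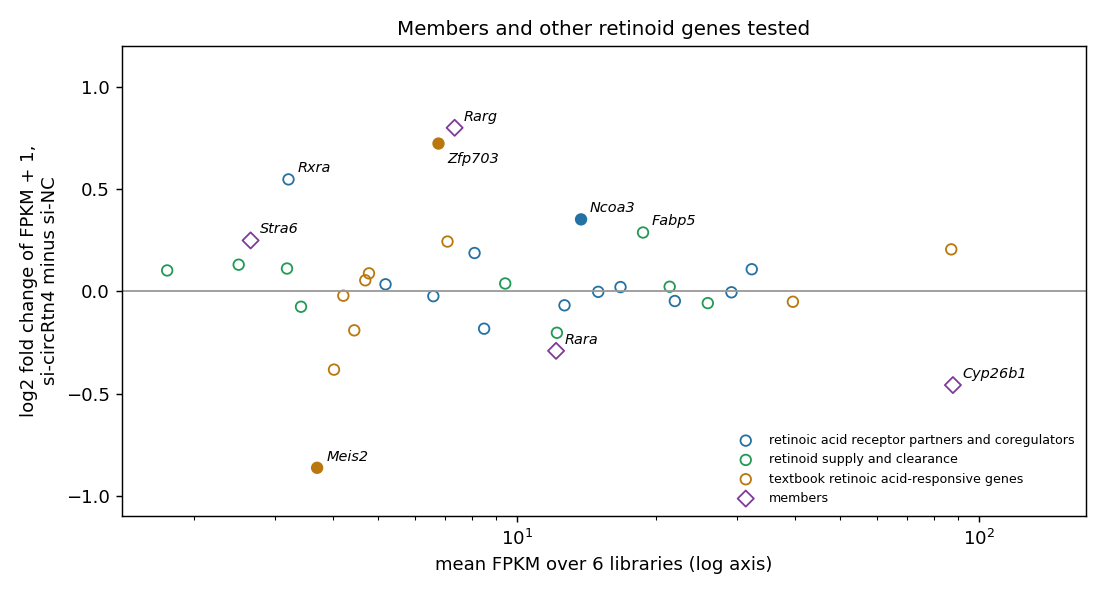
Log2 difference of si-circRtn4 from si-NC against mean FPKM (log axis) for the 4 members and the 31 other retinoid genes tested, with filled symbols for an adjusted p under 0.05 in the unpaired limma test. Meis2, Ncoa3 and Zfp703 are the filled symbols, and Cyp26b1 and Ret are the most abundant of the genes shown.

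Of the receptor partners and coregulators, 12 of 13 were tested, 1 rose and 0 fell, with a median log2 difference of 0.01. Ncoa3, a coactivator of nuclear receptors, was at 12.0 ± 0.405 FPKM in si-NC and 15.6 ± 0.731 FPKM in si-circRtn4 (SD, n = 3 each), a log2 difference of 0.35 (SE 0.07, limma adjusted p = 0.0245). The call of Ncoa3 was lost without si-NC replicate 2 or 3 and without any of the si-circRtn4 libraries, and the limma adjusted p over the 6 such fits ran from 0.0485 to 0.0822. Rxra, a retinoid X receptor, had means of 2.43 and 3.98 FPKM and a log2 difference of 0.55, which limma called only with the replicate block (adjusted p = 0.282 unpaired, 0.0217 blocked). The partner Rxrb at 29.1 FPKM, the corepressor Ncor1 at 22.0 FPKM, the deacetylase Hdac3 at 16.8 FPKM and the acetyltransferase Ep300 at 15.0 FPKM were among the most abundant by mean over the 6 libraries. By mean FPKM, Rxrb was thus above Rara and Rarg.

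Of the genes of retinoid supply and clearance, 9 of 21 were tested and 0 were called in the unpaired limma test. The retinaldehyde reductase Rdh11 led this list at 25.9 FPKM, followed by the retinol carrier Rbp4 at 21.4, Fabp5 at 18.7, Dgat1 at 12.2 and Dhrs4 at 9.43 FPKM. Fabp5, a fatty acid binding protein that also carries retinoic acid, had means of 16.8 and 20.7 FPKM and was called only with the replicate block (log2 difference 0.29, limma adjusted p = 0.219 unpaired, 0.0208 blocked). Aldh1a2, a main enzyme that makes retinoic acid in the embryo, was among the genes at 0. Of the same list, Aldh1a3 had 9 to 23 reads per library (mean 0.291 FPKM), and Aldh1a1 had 2 reads in total.

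Of the other textbook retinoic acid-responsive genes, 10 of 23 were tested, 1 rose and 1 fell. Meis2, a homeodomain factor, was at 5.23, 5.25 and 4.68 FPKM in si-NC and at 2.62, 2.02 and 2.37 FPKM in si-circRtn4, with no overlap between the groups. Its log2 difference was -0.86 (SE 0.10, limma adjusted p = 0.00377), and it was called under each of the 15 alternatives. Zfp703, a zinc finger corepressor, rose in si-circRtn4, where the mean was 8.69 ± 1.81 FPKM beside 4.83 ± 0.748 FPKM in si-NC (SD, n = 3 each), with a log2 difference of 0.72 (SE 0.15, limma adjusted p = 0.0298). The call of Zfp703 was lost without si-NC replicate 2 or 3, without si-circRtn4 replicate 1 or 2 and without the filter on low values, with a limma adjusted p of 0.0189 to 0.0983 over the fits that left out 1 library.

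The most abundant of these responsive genes were the receptor tyrosine kinase Ret at 87.1 FPKM and the neurotrophin receptor Ngfr at 39.6 FPKM, followed by Nr2f2 at 7.07, Zfp703 at 6.76 and Nrip1 at 4.78 FPKM. The anterior Hox genes Hoxa2, Hoxb1 and Hoxb2, which retinoic acid raises early in many stem cells, were all at 0 reads. Tgm2, another widely used marker of retinoic acid exposure, had a mean of 0.790 FPKM. Of the genes with a DR5 in their promoter window, 18 were found in the table. Of these, 2 had a mean of at least 1 FPKM, Blvrb at 10.6 and Cfap45 at 4.07, and 7 had 0 reads in every library, beside 12749 of 54532 listed genes that reached this mean and 28442 with a value above 0 in at least 1 library.

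The libraries held 13541198 to 15122063 reads on genes, recovered from the FPKM values. The host gene Rtn4 had a log2 difference of -0.22 (limma adjusted p = 0.216 unpaired, 0.0447 with the replicate block), and its FPKM cannot separate circular from linear RNA. A single RNA, Gm23935, took 20.1 to 20.7% of the FPKM sum in si-NC and 13.5 to 18.8% in si-circRtn4, and its part in the differences above was not tested. Of 11 markers of N2a cells, 10 were tested and 4 (Dbh, Th, Phox2a and Gata2) were lower in the unpaired limma test, in which 4.82% of all genes were called lower, with a summed level of 1018 to 1132 FPKM in si-NC and 725 to 1009 FPKM in si-circRtn4. The 12 markers of other cell types summed to 5.65 to 7.35 FPKM in si-NC and 4.31 to 6.65 FPKM in si-circRtn4, with Aqp4 and Epcam at 0. The part of the N2a markers in the members' differences was not tested.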

How the data were processed

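RNA sequencing of 6 N2a libraries, 3 si-NC and 3 si-circRtn4, was grouped by the sample titles, which name the columns of the table. The authors deposited FPKM values per gene (fragments scaled by gene length and library size) with gene length and coordinates. The submitters' processing notes name Bowtie 0.12.2 and the builds mm8 and mm9 without a role; the counting tool is not given in the sources used here. Of the 54532 genes listed, 53499 had the coordinates of GENCODE M21 (GRCm38), and 6 columns of other samples were not used. FPKM times gene length, divided by a step inferred for each library from its values (the value of 1 read), was whole for 100% of values (tolerance 0.01), and these are the reads quoted.

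Values were tested as log2(FPKM + 1), a scale that understates changes of low genes, with limma 3.58.1 in R 4.3.3 (lmFit, eBayes with trend, two-sided) on 12749 genes, those whose FPKM averaged 1 or more across all 6 libraries. The Benjamini-Hochberg adjustment ran over all of them. Exact permutation tests were two-sided. Members and gene lists were chosen with earlier results of these data known, so their counts are descriptions. Some genes of the lists are not reported here by name. Genes named were the members, Rtn4, the genes of each list called or among its 5 highest by mean FPKM, and the 5 most like the member with the largest difference. Tgm2, Aldh1a1, Aldh1a2, Aldh1a3, the genes at 0, those called only with the block and the DR5 genes were named after their values were seen.

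Deviations from the group means correlated between libraries of the same replicate number (0.331, 0.190 and 0.226), so a fit with the number as a block was treated as paired. Between different numbers the correlation was at most 0.00913. Deviations from a group mean cancel out within the group, so positive correlations at the same number push the others down. The low values between different numbers are thus not separate support for pairing. The pairing comes from this check and not from the labels. The labels do not say that libraries came from separate cultures, so p-values measure the spread between these libraries, which may be technical. On simulated data the limma test recovered 88.1% of 194 genes changed 2-fold among 12796 tested, with 5.52% false calls. The simulation gave every gene the same dispersion and no effect of replicate number. These shares thus do not measure the power on the real libraries. Alternatives were the pseudocount, the filter, TPM scaling, quantile normalization, limma-voom on recovered reads, the replicate block, no trend and leaving out each library.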

Additional observations from a re-analysis of the deposited data

How the results depend on the processing

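For the 4 members tested, no alternative turned the direction of a difference. The log2 difference of Rara ranged from -0.34 to -0.21 over 15 alternatives (limma adjusted p 0.0359 to 0.182), that of Rarg from 0.59 to 1.04 (0.00357 to 0.229), that of Cyp26b1 from -0.60 to -0.31 (0.00749 to 0.312) and that of Stra6 from 0.07 to 0.43 (0.138 to 0.881). The replicate block called 1 member higher and 2 lower in place of 0 and 0. limma-voom on recovered reads called 1 higher (Rarg, log2 difference 0.93, adjusted p = 0.028), as did limma-voom on genes with at least 10 reads in total (0.93, adjusted p = 0.0171). Leaving out 1 library gave 0 to 1 members higher and 0 lower.

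Of the other retinoid genes, 2 higher and 1 lower became 4 and 2 with the replicate block, 1 higher without the filter, and 2 lower with a pseudocount of 0.1, quantile normalization, either limma-voom fit or no trend. Leaving out 1 library gave 0 to 2 higher and 1 lower. Over all genes, 556 higher and 615 lower became 1185 and 1243 with the replicate block, 210 and 261 without the filter, 977 and 400 with TPM scaling, 903 and 722 with limma-voom on recovered reads and 1013 and 803 on genes with at least 10 reads. TPM scaling raised the median of all genes by 0.08 (log2) and the share of calls that were higher from 47.5% to 71.0%. Leaving out 1 library gave 163 to 407 higher and 217 to 419 lower. The cause of these shifts was not tested. Depth limits Rarb, Cyp26a1 and Dhrs3, whose counts cannot show a difference.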
